A study of Xenopus laevis with 4 samples.

Results

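The regions described here are the places on chromosomes 4L and 4S of the frog Xenopus laevis where tagged ETS2 was called as bound in both libraries of the study. They are all entries of the deposited list of common regions that lie on 4L or 4S. The rule used the chromosome alone and no measured value, but was set with earlier results of these data known. There were 5981 such regions among 61137 in the whole list (9.78%), with 3434 on 4L and 2547 on 4S. The whole list includes unplaced scaffolds, and the pair held 10.8% of the 55441 regions on the 18 chromosomes. The study mapped ETS2 by chromatin immunoprecipitation and sequencing (ChIP-seq) in 2 ChIP libraries made with an antibody to FLAG and 2 input libraries made with no antibody. All 4 libraries came from whole embryos at stage 11.5, in mid-gastrulation, which had been injected with 750 pg of mRNA for triple-FLAG ETS2. The bound protein was therefore an injected, tagged form, whole embryos mix all cell types of the stage, and a ChIP from embryos without the tag was not analysed here. Library 1 is the ChIP lettered A and library 2 the ChIP lettered C, and the labels do not say whether they came from separate clutches.

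ETS2 belongs to the ETS family of transcription factors, which bind DNA at sites with a GGAA core. Some members of the family act in the nucleus downstream of FGF and MAP kinase signalling. FGF signalling patterns the mesoderm of the frog gastrula. Xenopus laevis is allotetraploid, so its chromosomes come as a long (L) and a short (S) homeolog that descend from different ancestral species, and 4L and 4S are such a pair. Coordinates below are those of the files, counted from 1. None of the sources used here names their build, and no genome was used, so no region is assigned to a gene and no sequence is shown.

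ETS2 regions were denser on 4L than on 4S. Up to the last peak of any list, 4L spans 144.1 Mb and carried 23.8 regions per Mb, and 4S spans 121.3 Mb and carried 21.0 per Mb. The ratio of 4L to 4S was 1.13 (exact binomial 95% interval 1.08 to 1.19), against 0.980 to 1.18 in the other 8 chromosome pairs. It was 1.12 (1.07 to 1.18) among the peaks of library 1 and 1.07 (1.04 to 1.11) among those of library 2. Both libraries thus had more peaks per Mb on 4L, but these ratios share peaks with that of the common regions. Of library 1 peaks, 97.7% on 4L and 96.7% on 4S lay in common regions. Library 2 peaks outside common regions gave 1.03 (0.989 to 1.07). Among the 18 chromosomes, 4L ranked 6th and 4S 12th in density. The regions covered 1.26% of 4L and 1.11% of 4S. These intervals cover counting error only, and as neighbouring regions are not independent they are too narrow. One pair of chromosomes allows no test, and regions on unplaced scaffolds are in neither count.

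Along both chromosomes the regions were dense in the first 20% of the length, thinner in the middle, denser again towards 90%, and thin at the far end. Each chromosome was divided into 10 equal segments. On 4L, segments 1 and 2 held 30.4 and 30.2 regions per Mb. Segment 3 held 23.4, near the 23.8 of all 4L, and segments 4 and 5 held 19.9 and 17.9. Segments 6 and 7 held 23.7 and 21.4, segment 9 held 27.9 and segment 10 held 18.3. On 4S, segments 1 and 2 held 26.1 and 29.9 per Mb, segments 3 and 4 held 15.996 and 16.2, segment 9 held 23.7 and segment 10 held 16.9. Over the first 20% of the length the densities were 30.3 per Mb on 4L and 28.0 on 4S, against 22.2 and 19.3 over the remaining 80%. The first 5% of 4L as a whole was not dense and held 0.996 times the regions of an even spread. The first 5% of 4S held 1.303 times, and the other chromosomes a median of 1.39 times. Within that stretch of 4L the density was uneven, as the first of 50 equal bins held 32.3 regions per Mb and the next 21.9. The last 5% of 4L held 0.623 times, and that of 4S 0.550 times, the regions that an even spread would give. In the other 16 chromosomes that value ran from 0.621 to 1.81 (median 0.951), so the end of 4S was thinner than the end of each of these.

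**Figure D1:**
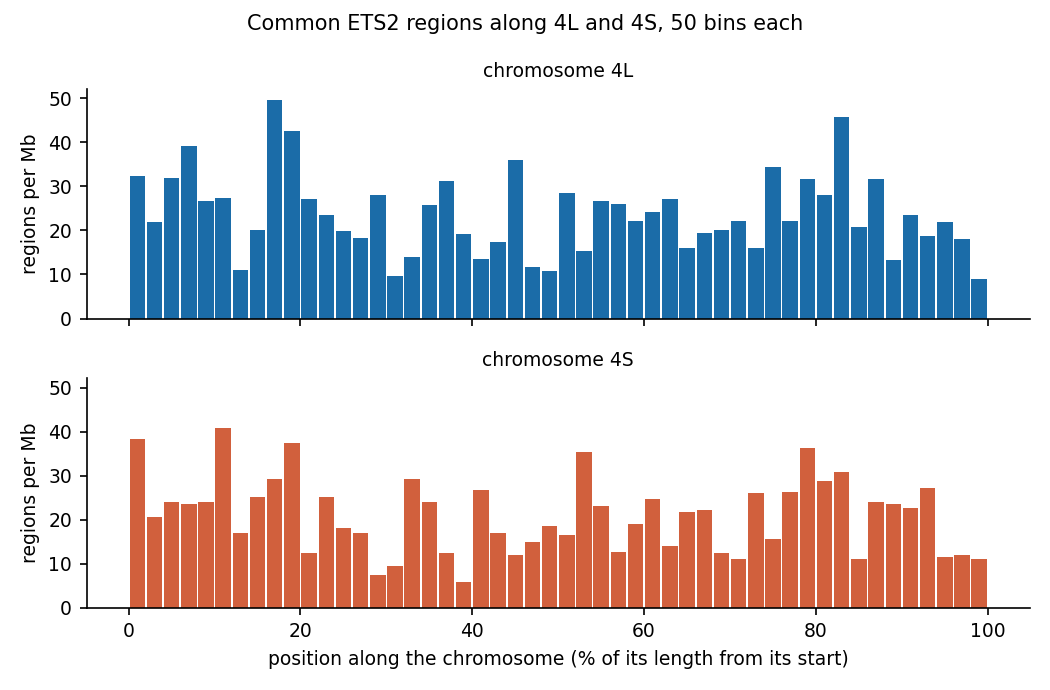
Common ETS2 regions per Mb (vertical axes) in 50 equal bins along 4L (upper panel) and 4S (lower panel), with position as a percentage of length from the start. Both chromosomes show high bars in the first 20% and low bars at the far end, while single high bars mostly stand at different places.

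The difference between the chromosomes was uneven along their length. The common regions were denser on 4L in 10 of 10 segments, the library 1 peaks in 9 and the library 2 peaks in 7. The largest of the 10 ratios was in segment 3, at 1.46 (95% interval 1.22 to 1.75), with 337 regions on 4L and 194 on 4S. Library 1 gave 1.43 there and library 2 gave 1.40. The next was in segment 4, at 1.23 (1.02 to 1.49), with 287 regions on 4L and 196 on 4S. In segments 2 and 5 the ratio was 1.01 (intervals 0.875 to 1.16 and 0.836 to 1.21). The interval lay above 1 in 4 of the 10 segments. Outside segment 3, each interval included the 1.13 of the whole pair. The intervals treat neighbouring regions as independent and are too narrow, and whether the ratio differed among segments was not tested. With segments 3 and 4 left out the ratio over the remainder was 1.10, an alternative chosen after these values were seen.

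**Figure D2:**
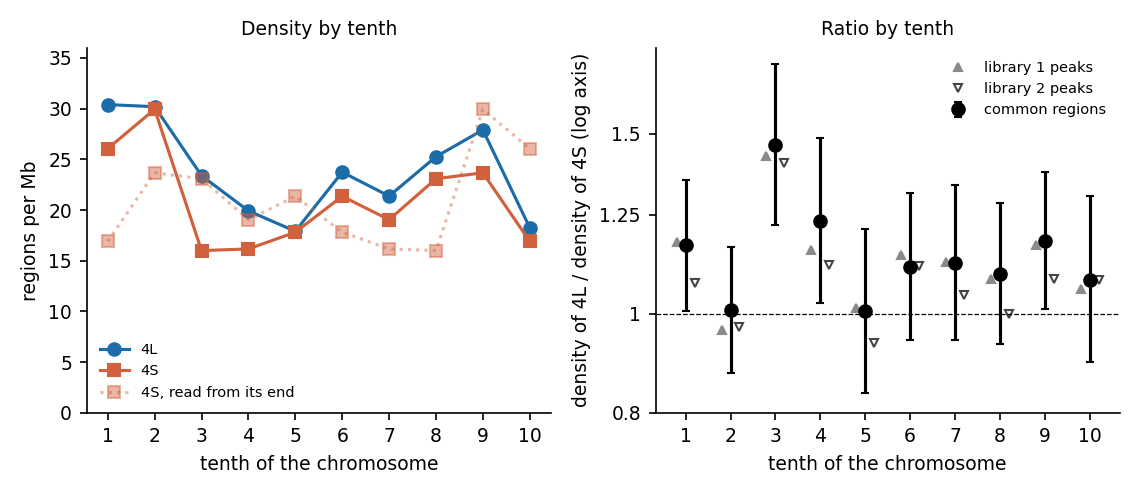
Left, regions per Mb in 10 equal segments of 4L (circles) and 4S (squares), with 4S also read from its end (pale, dotted). Right, density of 4L divided by density of 4S in each segment on a log axis, with exact binomial 95% intervals for common regions (black) and values for each library (triangles). Segment 3 has the highest ratio, 1.46, and both libraries are close to it.

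Neighbouring regions on the chromosomes were spaced alike at short range and differed at long range. The median gap between neighbours was 17.9 kb on 4L (interquartile range 4.75 to 49.7) and 19.2 kb on 4S (5.09 to 52.6). The smallest gaps were 30 bp on 4L and 7 bp on 4S. Of 3433 gaps on 4L, 883 (25.7%, 24.3 to 27.2%) were under 5 kb, and of 2546 on 4S, 628 (24.7%, 23.0 to 26.4%). Over all 18 chromosomes 25.6% of gaps were that short, so neither chromosome stood apart. At the long end, the 90th percentile of gaps was 107.0 kb on 4L and 126.4 kb on 4S, and the longest gaps were 588 and 899 kb. The longest gap of 4L was shorter than that of each of the 16 other chromosomes (623 to 954 kb).

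Long stretches without a common region took up more of 4S than of 4L. Gaps of 200 kb or more numbered 121 on 4L and 131 on 4S, and made up 24.4% of 4L and 33.4% of 4S. The difference of −9.00 percentage points (L minus S) lay outside the range of the other 8 pairs, which was −3.27 to 3.03. It did so with gaps of 100 kb too, at −7.28 against −4.64 to 2.96, and with gaps of 300 kb, at −6.31 against −5.10 to 3.08. At 200 kb the share on 4S was above that of the 16 other chromosomes, 21.6 to 31.9%, but this order depended on the gap size. With gaps of 100 kb, 5 chromosomes exceeded the 56.6% of 4S, and with gaps of 300 kb 1 chromosome exceeded its 17.0%. A sparser chromosome has longer gaps, so the share is not independent of density, and these chromosomes were all among the 6 that were sparser than 4S. Outside these gaps the density was 31.5 regions per Mb on 4L and 31.5 on 4S, a ratio of 0.9996 (0.949 to 1.05), where the other pairs had 0.980 to 1.14. This comparison uses the regions themselves to define the gaps, was chosen after the density was known, and gave 0.972 with gaps of 100 kb and 1.05 with gaps of 300 kb.

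The long gaps were not empty of ETS2 peaks in library 2. Inside gaps of 200 kb or more, library 2 had 651 peaks on 4L (18.5 per Mb) and 801 on 4S (19.8 per Mb), against 72.3 and 73.1 per Mb outside them. These peaks were weak, with a median percentile of 29.8 on 4L and 32.5 on 4S within the library 2 list. Both contrasts are set in part by construction, because library 2 peaks that belong to common regions fall outside the gaps. All library 2 peaks outside common regions had much the same median percentiles, 31.6 on 4L and 31.1 on 4S. Their density over the whole chromosome was 35.3 per Mb on 4L and 34.3 on 4S, above the 18.5 and 19.8 inside the gaps. Peaks outside common regions were thus also sparser inside the gaps, and the reason was not tested. In the list of library 1 alone, gaps of 200 kb or more made up 23.7% of 4L and 32.3% of 4S. That difference was −8.65 points, against −2.89 to 2.05 in the other pairs. It is not a separate result, because 97.7% of library 1 peaks on 4L and 96.7% on 4S lay in common regions. The gaps of both lists were therefore nearly the same. In the denser list of library 2, gaps of 100 kb or more made up 16.8% of 4L and 18.3% of 4S. That difference of −1.45 points lay within the range of the other pairs (−1.91 to 4.12), although the share of 4S was the highest of the 18 chromosomes by a small margin (at most 18.2% elsewhere).

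**Figure D3:**
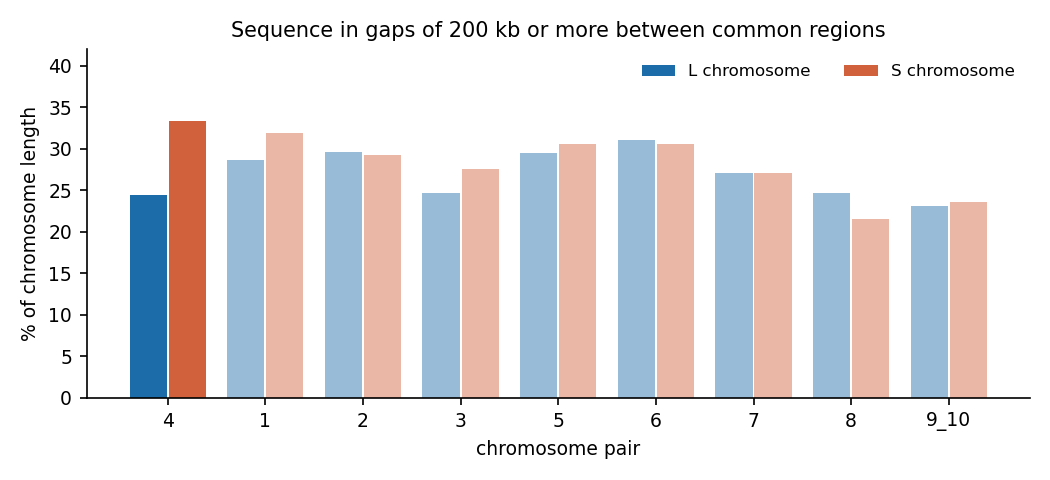
Percentage of each chromosome's length (vertical axis) that lies in gaps of 200 kb or more between neighbouring common regions, for L (left bar) and S (right bar) of the 9 pairs, with pair 4 in full colour. The bar of 4S, 33.4%, is the highest, and that of 4L is 24.4%.

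The longest gaps lay in different parts of the chromosomes. On 4L they were at 19667569 to 20255660 (588 kb), at 122862701 to 123415185 (552 kb) and at 92699444 to 93244246 (545 kb), which is at 13.9, 85.5 and 64.5% of the length. They held 7, 8 and 11 library 2 peaks and no library 1 peak. On 4S they were at 35102099 to 36001489 (899 kb), at 43207465 to 44058226 (851 kb) and at 47902977 to 48712720 (810 kb), at 29.3, 35.98 and 39.8% of the length. They held 12, 8 and 9 library 2 peaks, and the second held 1 library 1 peak. The highest value among the library 2 peaks of these 6 gaps was 23.7, in the gap from 92699444 on 4L. The value is the authors' and is read here as −log10 of a p or q value. The longest run without a peak of library 2 was 331 kb, in the gap from 47902977 on 4S. Segments 3 and 4 of 4S, where these gaps fall, held 4.47 and 5.59 Mb of gaps of 200 kb or more. The same segments of 4L held 2.48 and 4.83 Mb. Segments of 4S are shorter than those of 4L, so as shares of segment length the difference is larger than these totals show.

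Dense stretches were about as frequent as on the other chromosomes, and the fullest one of 4S held few regions. Of 1442 windows of 100 kb on 4L, 30 (2.08%) held 10 or more regions and 339 (23.5%) held none. Of 1213 windows on 4S, 20 (1.65%) held 10 or more and 360 (29.7%) held none. Over all 18 chromosomes 1.83% of windows held 10 or more, and the 16 others ranged from 0.805 to 3.33%. The dense windows held 356 regions (10.4%) on 4L and 222 (8.72%) on 4S. The highest count was 18 on 4L and 14 on 4S, where the fullest window of each other chromosome held 17 to 31, so that of 4S was below all of these. The library lists moved together from window to window, with a rank correlation of 0.83 over the 1442 windows of 4L and 0.82 over the 1213 of 4S, given as a description since the libraries share the genome sequence and its peak-free stretches.

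The densest window of 4L, at 53700001 to 53800000, held 18 regions, from 19 library 1 and 30 library 2 peaks. It was followed by 91300001 to 91400000 with 17 regions and 4800001 to 4900000 with 15. Windows at 10000001 to 10100000 and at 126300001 to 126400000 held 14 each. In the first 3 of these the median mean percentile of the regions was 78.8 to 80.9, above the 66.8 of all regions on 4L, and in the other 2 it was 61.7 and 53.2. The strongest regions of those 2 windows still reached 99.7 and 97.1. Dense windows of 4L thus had a median strength above that of the chromosome in some places and below it in others.

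On 4S the windows at 18300001 to 18400000 and at 74300001 to 74400000 held 14 regions each. They were followed by 64800001 to 64900000 with 13, and by 20500001 to 20600000 and 98800001 to 98900000 with 12 each. The median mean percentile was 84.0, 80.8 and 86.6 in the first 3, and 61.5 and 72.3 in the other 2, against 66.2 for all regions on 4S. The first of these windows also held the strongest region of 4S. Between 5.49 and 11.1% of the sequence in these 10 windows of 4L and 4S lay in regions.

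At the scale of 1 Mb, the few fullest stretches of 4L lay in its second part and those of 4S in its first. For 4L this depended on the scale. In 50 equal bins its fullest bin, at 49.6 regions per Mb, lay in the first 20% of the length, ahead of a bin at 45.8 in its second part. On 4L the stretch at 107000001 to 108000000 held 64 regions, that at 119000001 to 120000000 held 62 and the adjoining one at 120000001 to 121000000 held 61, against a median of 22 over 144 stretches. At the same relative positions 4S held 16, 20 and 19 regions, and read from its end 12, 41 and 20. On 4S the stretch at 13000001 to 14000000 held 55 regions, that at 22000001 to 23000000 held 52 and that at 1000001 to 2000000 held 50, against a median of 20 over 121 stretches. At the same relative positions 4L held 23, 43 and 28, and read from its end 13, 29 and 12. The stretches at 5000001 to 6000000 and at 45000001 to 46000000 were the emptiest of 4L, with 4 regions each, and the first of them lay next to the 1 Mb that holds the window with 15 regions. The emptiest of 4S, at 43000001 to 44000000, held 2.

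Runs of neighbours with gaps under 5 kb, called chains here, joined 3 or more regions in 180 places on 4L and 124 places on 4S. They held 685 regions of 4L (19.9%) and 462 of 4S (18.1%), where the other 16 chromosomes had 14.0 to 23.5%. Single regions made up 58.0% on 4L and 59.1% on 4S. The longest chain of 4L held 11 regions within 28.0 kb, at 4862613 to 4890587, with library 1 values from 2.93 to 36.7 and library 2 values from 4.05 to 151. The next held 9 regions at 134165724 to 134185555 and 8 at 83722226 to 83740968. On 4S, chains of 10 regions lay at 18324919 to 18346631 (21.7 kb) and at 74320954 to 74339929 (18.98 kb), inside both windows with 14 regions. A chain of 9 followed at 13113786 to 13137456. In the second chain of 4S the values ran from 1.92 to 91.4 in library 1 and from 5.34 to 162 in library 2, so weak and strong regions stood side by side.

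In coarse bins the profiles of 4L and 4S were alike when read from the same end and not when read from opposite ends. Over 10 equal bins, a number chosen after the data were seen, the rank correlation of the counts was 0.818 in the same orientation and −0.091 in the opposite one. The other 8 pairs had −0.115 to 0.855 in the same orientation (median 0.685) and −0.444 to 0.693 in the opposite one, so this pair did not stand apart. Over 20 bins the correlation of 4L and 4S was lower, at 0.309 in the same and −0.093 in the opposite orientation. Over 100 bins it was 0.219 in the same orientation and 0.032 in the opposite one. The other 8 pairs ranged from −0.006 to 0.445 in the same and from −0.112 to 0.165 in the opposite orientation at 100 bins, with 4L and 4S in the 5th place of 9 in the same orientation. The lists of library 1 and library 2 gave 0.184 and 0.236 in the same orientation, and 0.059 and 0.115 in the opposite one. No p-value is given, because bins of a chromosome are not independent and both chromosomes were mapped with the same libraries.

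At fine scale the likeness was lower with the starts of the chromosomes left out. Without the first 20% of each, the correlation over 100 bins was 0.036, against 0.219 with them. No other 20% of the length was left out for comparison, so this does not show that the likeness lay in the starts alone. At coarse scale the correlation was still 0.667 over the 10 bins without the first 20%. Over 100 bins it was 0.151 without the first and last 10%. With absolute distance from the start in bins of 1 Mb in place of relative position, it was −0.009 in the same orientation and 0.156 in the opposite one. Library 2 peaks outside the common regions gave 0.239 in the same and 0.136 in the opposite orientation, so the likeness was not particular to the regions found in both libraries.

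**Figure D4:**
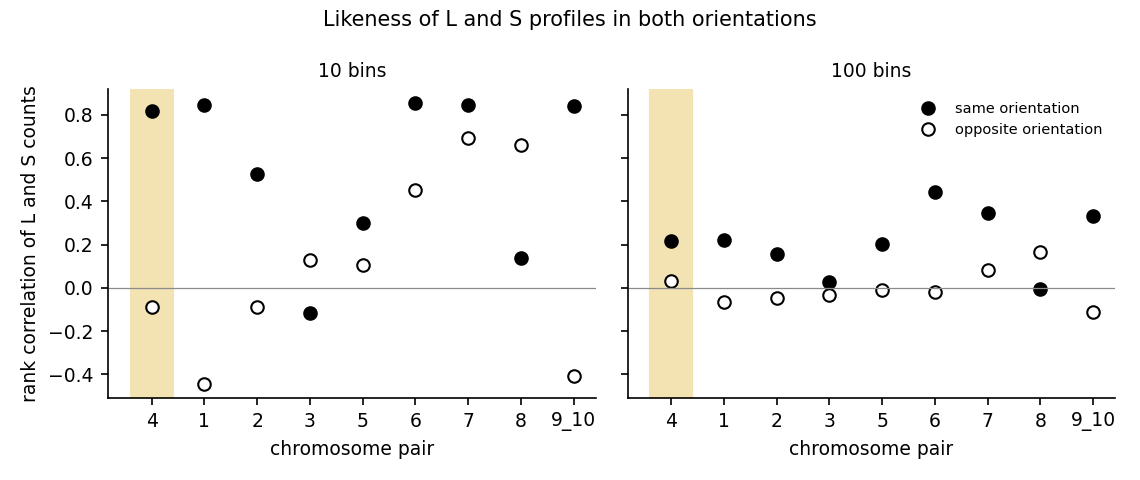
Rank correlation of L and S region counts (vertical axes) over 10 bins (left) and 100 bins (right) for the 9 chromosome pairs, with S read from its start (filled) or its end (open). Pair 4, shaded, has 0.818 against −0.091 at 10 bins and 0.219 against 0.032 at 100 bins.

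Dense windows did not pair up more in one orientation than in the other. Of the 30 windows of 4L with 10 or more regions, 19 had such a window of 4S within 2% of the same relative position, and 20 had one when 4S was read from its end. Of the 20 of 4S, 16 had one on 4L in the same and 14 in the opposite orientation. Each search was wide, covering 48 to 58 windows of the partner for the densest windows of each chromosome. Of all windows, 2.08% on 4L and 1.65% on 4S were dense. The share of all windows with such a partner was not computed, so these counts do not show pairing beyond that background. The densest window of 4L, at 37.3% of its length, met at most 6 regions per window on 4S near that position. Read from the other end, it met the 4S window with 14 regions at 61.3%. The window with 15 regions at 3.37% of 4L met a window with 11 regions at 4.91% of 4S, and 7 in the opposite orientation. The window with 14 regions at 15.1% of 4S met one with 12 regions at 16.4% of 4L in the same orientation, and one with 13 in the opposite one. Matches of dense windows were thus about as many in either orientation.

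The regions on the pair were of the same width. The median width was 465 bp on 4L (358 to 635) and 464 bp on 4S (357 to 631), and the other 16 chromosomes had medians of 442 to 475 bp. Widths ranged from 140 to 2431 bp on 4L and from 139 to 3289 bp on 4S. Library 2 peaks in common regions had median widths of 463 bp on 4L and 461 bp on 4S. For library 1 peaks these were 231 and 238 bp, so the widths of regions stood near those of library 2. The widest region of 4S, at 22805071 to 22808359, contained 7 separate library 1 peaks within 1 library 2 peak. Its library 1 value was 29.2 and its library 2 value 31.7. The next on 4S was at 23074432 to 23076939 (2508 bp, values of 16.6 and 66.3), and another at 71212816 to 71214922 (2107 bp, 51.9 and 157). The mean percentiles of these 3 were 84.1, 83.5 and 98.3, against an upper quartile of 83.5 over all regions of 4S.

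On 4L the widest regions were strong. They lay at 27836954 to 27839384 (2431 bp, 52.9 in library 1 and 133 in library 2), at 87648752 to 87651122 (2371 bp, 68.9 and 170) and at 4102836 to 4105098 (2263 bp, 43.0 and 124). The first of them held 5 library 1 peaks. Over the whole chromosomes, regions with 2 or more library 1 peaks numbered 240 on 4L (6.99%) and 181 on 4S (7.11%), near the low end of the 6.62 to 8.73% of the other chromosomes.

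Strength was measured as the percentile, within its own library's list, of the highest peak value in a region, where the value is the authors' and is read as −log10 of a p or q value. In library 1 the median percentile was 54.3 on 4L and 54.0 on 4S, and in library 2 it was 81.4 and 80.5. The common regions rank higher in library 2 by construction, because the peaks without a partner in library 1, over 1 in 2 of that list, were mostly weak. The mean of both percentiles had a median of 66.8 on 4L (47.4 to 83.3) and 66.2 on 4S (47.8 to 83.5). That difference of 0.60 points was small beside the spread among regions. The libraries ordered the regions alike, with a rank correlation of their values of 0.79 on 4L and 0.78 on 4S. Wider regions were stronger, from a median mean percentile of 43.7 in the narrowest 25% to 84.3 in the widest 25% on 4L, and from 44.2 to 85.4 on 4S. Width and value come from the same peaks, so they are not separate measures.

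Regions in the top 10% of both lists numbered 384 on 4L (11.2%, 95% interval 10.1 to 12.3%) and 288 on 4S (11.3%, 10.1 to 12.6%), against 10.4% over all 18 chromosomes. Their density was 2.66 per Mb on 4L and 2.37 per Mb on 4S, a ratio of 1.12 (0.961 to 1.31), close to that of all regions. In the first 20% of the chromosome lay 127 of them on 4L (33.1%) and 104 on 4S (36.1%), where that stretch held 25.4% of all regions of 4L and 26.7% of those of 4S. The share of regions that were strong was thus 14.5% (12.3 to 17.1%) in the first 20% of 4L against 10.04% (8.90 to 11.3%) in its remainder, and 15.3% (12.7 to 18.2%) in the first 20% of 4S against 9.85% (8.54 to 11.3%). The fullest 1 Mb held 12 of them on 4L, at 7000001 to 8000000, and 11 on 4S, at 1000001 to 2000000. Across the 10 segments the median mean percentile stayed between 63.1 and 69.2 on 4L and between 63.5 and 68.9 on 4S. The dense starts of both chromosomes therefore held a higher share of strong regions without a shift of the median. The intervals of these shares treat neighbouring regions as independent and are too narrow.

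Strong regions were more frequent in some classes of chains than among single regions. The share in the top 10% of both lists was 8.98% (7.76 to 10.3%) among the 1993 single regions of 4L and 20.3% (15.1 to 26.3%) among its 212 regions in chains of 5 or more. On 4S it was 10.03% (8.56 to 11.7%) among 1505 single regions and 12.3% (7.05 to 19.5%) among 122 in chains of 5 or more. In chains of 2 it was 12.6% (10.3 to 15.1%) on 4L and 11.7% (9.22 to 14.6%) on 4S. In chains of 3 or 4 it was 14.2% (11.1 to 17.6%) on 4L and 15.9% (12.2 to 20.2%) on 4S. The intervals of 4L and 4S overlapped in each class. They treat the regions of a chain as independent, which neighbours are not, so they are too narrow. The median strength on 4L was 66.2 for single regions and 71.1 for chains of 5 or more. It was 68.1 in chains of 2 and 66.6 in chains of 3 or 4. On 4S it was 66.9 for single regions and 67.1 for chains of 5 or more, but 65.4 and 65.6 in the classes between. The lower quartile on 4L fell from 48.1 for single regions to 47.5, 45.9 and 42.8 in longer chains. On 4S it fell from 48.5 to 46.4 and 44.6 up to chains of 3 or 4, but was highest in chains of 5 or more. For single regions and chains of 5 or more on 4L, the median percentiles were 52.7 and 61.2 in library 1, and 81.1 and 82.5 in library 2. On 4S they were 54.3 and 56.5 in library 1, and 80.8 and 80.9 in library 2.

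**Figure D5:**
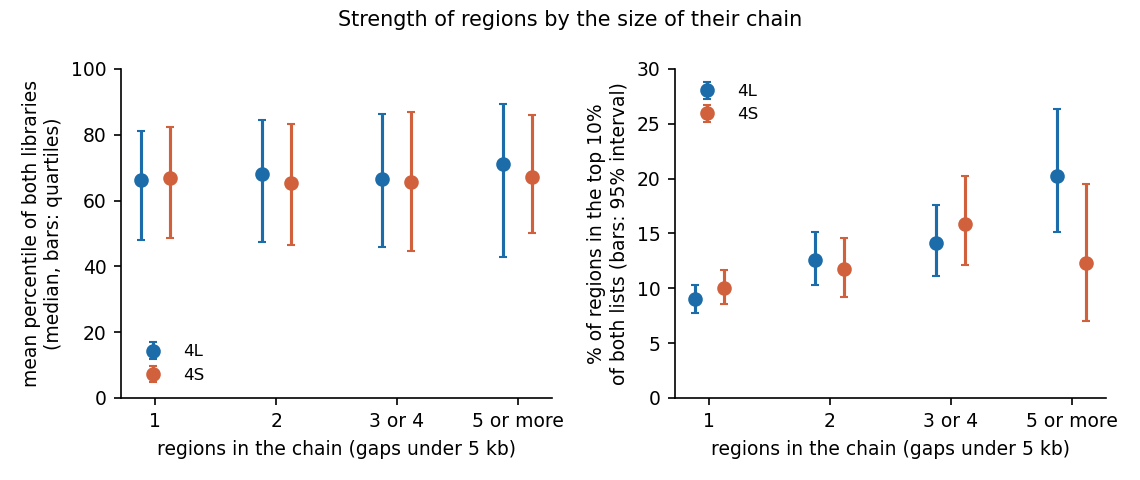
Strength of regions by the number of regions in their chain, for 4L (left points) and 4S (right points). Left panel, median and quartiles of the mean percentile of both libraries; right panel, percentage of regions in the top 10% of both lists with exact 95% intervals, which is 20.3% for chains of 5 or more on 4L and 12.3% on 4S.

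The 5 strongest regions of each chromosome stood among the first 100 of all 61137 in mean percentile. On 4L the first was at 29771716 to 29773073 (1358 bp) with a library 1 value of 99.1 and a library 2 value of 254, and ranked 32nd. It was followed by 7719009 to 7719590 (96.5 and 261), 8933537 to 8934233 (98.0 and 215), 119797147 to 119797698 (88.1 and 248) and 7792827 to 7794393 (88.5 and 219). Both 7719009 to 7719590 and 7792827 to 7794393 lay in the same window of 100 kb, which held 13 regions. The first had neighbours within 0.391 and 0.530 kb.

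On 4S the strongest was at 18374279 to 18375166 (888 bp) with a library 1 value of 99.4 and a library 2 value of 239, and ranked 35th. It was followed by 71575888 to 71577034 (95.4 and 222), 95368737 to 95369312 (92.4 and 222), 7603387 to 7604006 (88.6 and 221) and 14200719 to 14201754 (88.2 and 219). The region at 71575888 to 71577034 stood alone, 88.6 and 86.7 kb from its neighbours and without another region in its window. Those at 18374279 to 18375166 and 95368737 to 95369312 were in windows with 14 and 10 regions. The 5 strongest regions of 4L all lay in windows with 7 to 13 regions, while those of 4S lay in windows with 1 to 14.

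Most peaks of library 1 on the pair, and fewer than 1 in 2 of library 2, were part of a common region. Of 3793 library 1 peaks on 4L, 3706 (97.7%, 97.2 to 98.2%) lay in one, and of 2852 on 4S, 2757 (96.7%, 95.9 to 97.3%). Of 8531 library 2 peaks on 4L, 3445 (40.4%, 39.3 to 41.4%) lay in one, and of 6707 on 4S, 2552 (38.05%, 36.9 to 39.2%). The 5086 library 2 peaks outside common regions on 4L and the 4155 on 4S had median percentiles of 31.6 and 31.1 and median widths of 216 and 217 bp. Their density was 35.3 per Mb on 4L and 34.3 on 4S, a ratio of 1.03 (0.989 to 1.07). Set beside the ratio of 1.13 for the common regions, this difference was not tested.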

How the data were processed

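The authors deposited a list of peaks for each ChIP library and a list of common regions. The submitters' processing notes name Bowtie2 2.2.3 and MACS2, with no role or settings, and no source used here names the genome build. The value per peak, as deposited by the authors, was taken for the −log10 of either a p-value or a q-value, since the lowest were 1.33 and 1.31, near −log10 of 0.05. It was used only to rank peaks within each list, of 69083 and 157105 peaks. Sequencing depth is unknown.

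Regions were placed by their midpoints, chromosome lengths were taken to the last peak of any list, and gaps run from the end of a region to the start of the next. Shares carry exact (Clopper-Pearson) 95% intervals, which cover counting error only and treat neighbouring regions as independent. No test was made, since regions are not replicates. Named regions are the 5 strongest and 3 widest of each chromosome, with its 5 densest 100 kb windows, 3 longest chains and 3 longest gaps. The members and measures were chosen with earlier results of these data known. The procedures were tested on simulated data. Python 3.11.15, numpy 2.4.6, pandas 2.3.3, scipy 1.17.1 and matplotlib 3.10.9 were used.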

Additional observations from a re-analysis of the deposited data

How the results depend on the processing

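Results were recomputed as 60 alternative values, of which 22 stayed within the set margin (the counting interval, the SD of both libraries or, for counts, 1.5 times) and 38 moved. The 10 and 20 bins, the omission of the first 20% or of segments 3 and 4, and the long gaps were added once the data had been seen. The density ratio of 4L to 4S, 1.13, was 1.07 with reciprocal overlap of 50%, 0.972, 0.9996 and 1.05 outside gaps of 100, 200 and 300 kb, and 1.07 to 1.12 with 1 library left out. The share of close neighbours was 13.8% on 4L and 14.5% on 4S under 2 kb, 52.3% and 51.2% under 20 kb, 19.7% and 18.2% among regions above the 50th percentile, and 30.9 to 41.5% and 30.4 to 40.1% with 1 library left out. Dense windows numbered 64 on 4L and 44 on 4S with 8 or more regions, 14 and 5 with 12 or more, 7 and 5 above the 50th percentile, and 41 to 271 and 34 to 203 with 1 library left out. The strength difference was 0 to 2.41 points with 1 library left out. The correlation in the same orientation was 0.818 with 10 bins, 0.309 with 20, 0.169 with 200, 0.151 without the first and last 10%, 0.0361 without the first 20% (0.667 with 10 bins) and −0.00895 in bins of 1 Mb. In the opposite orientation it was −0.0909, −0.0926 and −0.0546 with 10, 20 and 50 bins, 0.0783 without the first and last 10%, 0.156 in bins of 1 Mb and 0.0587 to 0.115 with 1 library left out. Causes of these moves were not tested, apart from those set by construction, such as larger gaps or stricter minimums. Shifting the windows by 50 kb gave 28 dense windows on 4L and 19 on 4S. No paired analysis was possible because the values come from peak lists. Each list is named for 1 ChIP library and 1 input, and no values of the inputs alone were used here.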
